A study of Homo sapiens with 3 samples.

Results

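The 7 APOBEC3 genes encode cytidine deaminases, and their RNA levels were compared here between irinotecan-resistant and parental LoVo cells. The members were APOBEC3A, APOBEC3B, APOBEC3C, APOBEC3D, APOBEC3F, APOBEC3G and APOBEC3H, taken by symbol from the array's annotation. A probe set is a group of array probes summarized as 1 value, and its annotation may name 1 gene, several or none. Of the 8 probe sets that name a member, 7 name that member alone. They give values for 6 members, out of 18417 genes with a probe set of their own, since APOBEC3F has a pair of probe sets. APOBEC3A was measured only by a probe set that it shares with APOBEC3A_B, and its values are given apart. The family was chosen by its log2 differences from parental LoVo on these same arrays, among which APOBEC3G and APOBEC3F were already known to be far up. The differences below are therefore a description, and no test was made.

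LoVo is an established human colorectal cancer cell line, and LoVo-R8 is its derivative adapted to irinotecan, a topoisomerase I inhibitor, at doses raised stepwise between 0.1 and 8 μM. RNA was hybridized to Affymetrix Human Gene 1.0 ST arrays, 1 array for each of 3 cultures. These were LoVo-R8 cells cultured with 8 μM irinotecan, LoVo-R8 cells cultured free of irinotecan, and parental LoVo cells. All 3 labels carry the same note of irinotecan exposure ahead of RNA extraction. The sources used here do not say if parental LoVo was exposed too, or if LoVo-R8 is a single clone. Levels are log2 values normalized by the authors with the robust multichip average (RMA) method, so a difference of 1 is 2-fold. No condition had a replicate, so no value has an error. Both LoVo-R8 arrays were compared with the same parental array, so their differences from it are not independent. The median level of all 33297 probe sets was 6.94 with irinotecan, 6.95 without it and 6.94 in parental cells. First quartiles lay between 5.39 and 5.42, and levels below them are called dim here.

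APOBEC3 enzymes convert cytosine to uracil in single-stranded DNA. They are best known for restricting HIV and other retroviruses and for limiting the copying of retrotransposons, and HIV counters several of them with its Vif protein. In tumours, APOBEC3A and APOBEC3B are known as sources of mutations in the cell's own genome. APOBEC3B, APOBEC3D, APOBEC3F and APOBEC3G carry a pair of deaminase domains, whereas APOBEC3A, APOBEC3C and APOBEC3H carry a single one. The genes lie side by side on chromosome 22, arose by duplication and remain similar in sequence. Probes for one member may therefore bind RNA of another, and each member's values are uncertain to that extent.

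The resistant cells had higher APOBEC3 levels than parental LoVo on both arrays. In LoVo-R8 with irinotecan, 5 of the 6 members with a probe set of their own were at least 2-fold higher than in parental LoVo and 0 were lower. Of all genes, 2.25% were as much higher, and 4.56% differed by 2-fold in either direction. In LoVo-R8 without irinotecan, 4 of 6 passed 2-fold upwards and 0 downwards. Of all genes, 1.64% were as much higher, and 4.42% differed in either direction. These counts belong to the contrast for which the family was chosen. All 6 members lay above their parental level on both arrays, by 0.89 to 3.13 with irinotecan and by 0.83 to 3.03 without it. The median difference of the members was 1.39 with irinotecan and 1.49 without it, and that of all genes was 0 in both comparisons.

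**Figure D1:**
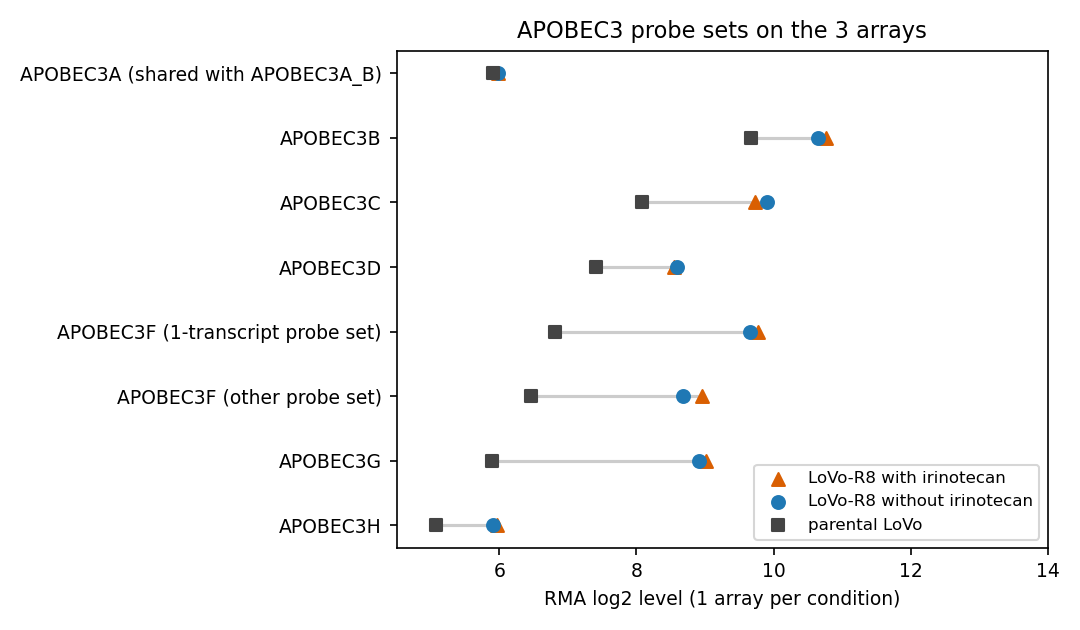
RMA log2 level (horizontal axis) of each APOBEC3 probe set (rows) in LoVo-R8 with irinotecan (triangles), LoVo-R8 without irinotecan (circles) and parental LoVo (squares), 1 array each. APOBEC3G spans the widest range, with 9.01 and 8.92 in the LoVo-R8 arrays against 5.89 in parental LoVo, and the APOBEC3A probe set lies at almost the same level on all 3 arrays.

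Of the members with a pair of deaminase domains, APOBEC3G differed the most. APOBEC3G packages into HIV particles and deaminates the viral DNA made in the next cell. Its level was 9.01 in LoVo-R8 with irinotecan, 8.92 in LoVo-R8 without irinotecan and 5.89 in parental LoVo. The measured levels were thus 8.73-fold higher with irinotecan and 8.17-fold higher without it. Counted from the highest difference down among all genes, APOBEC3G ranked 12 with irinotecan and 7 without it. On the parental array its level lay at percentile 32.5 of all probe sets, below the array median and close to that of the APOBEC3A probe set (32.7). No detection call was used, so the size of a fold over so low a level, and the rank that follows from it, are uncertain. In LoVo-R8 it lay at percentile 79.5 with irinotecan and 79.1 without it.

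APOBEC3F, another inhibitor of HIV lacking Vif, was nearly as far above its parental level. The brighter of its probe sets is annotated to 1 RefSeq transcript and represents the gene here. It gave 9.78 in LoVo-R8 with irinotecan, 9.66 in LoVo-R8 without irinotecan and 6.80 in parental LoVo, or 7.86-fold and 7.22-fold higher. The gene ranked 16 with irinotecan and 12 without it. The other APOBEC3F probe set, annotated to 4 accessions, gave 8.95 in LoVo-R8 with irinotecan, 8.69 without irinotecan and 6.46 in parental LoVo. Its fold differences were 5.63 and 4.67. Both probe sets put the LoVo-R8 arrays above parental LoVo, and they disagree in size.

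APOBEC3D, which also acts on HIV, had a smaller difference. Its level was 8.54 in LoVo-R8 with irinotecan, 8.59 in LoVo-R8 without irinotecan and 7.42 in parental LoVo, or 2.18-fold and 2.25-fold higher. It ranked 322 with irinotecan and 203 without it.

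APOBEC3B is a nuclear enzyme often high in cancer cell lines. Its level was 10.77 in LoVo-R8 with irinotecan, 10.66 in LoVo-R8 without irinotecan and 9.67 in parental LoVo. The differences were 1.10 with irinotecan and 0.99 without it, so the gene lay just past 2-fold in one comparison (2.15-fold) and just short of it in the other (1.98-fold). With loess correction or repeated quantile normalization it passed 2-fold without irinotecan as well. Its probe set was already among the bright ones on the parental array, at percentile 86.1.

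Of the members with a single deaminase domain, APOBEC3C differed the most. APOBEC3C is a broadly expressed enzyme with weak activity on HIV. Its level was 9.74 in LoVo-R8 with irinotecan, 9.90 in LoVo-R8 without irinotecan and 8.09 in parental LoVo, or 3.14-fold and 3.51-fold higher. It ranked 120 with irinotecan and 65 without it.

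APOBEC3H, whose activity differs between human haplotypes, was higher in LoVo-R8 by less than 2-fold. Its level was 5.96 in LoVo-R8 with irinotecan, 5.90 in LoVo-R8 without irinotecan and 5.07 in parental LoVo, or 1.85-fold and 1.78-fold higher. The parental level is dim, where background limits the size of a difference.

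APOBEC3A, a strong mutator of DNA known from myeloid cells and keratinocytes, could not be told apart from APOBEC3A_B. APOBEC3A_B is the hybrid left where a germline deletion joins APOBEC3A to the end of APOBEC3B. The shared probe set gave 5.97 in LoVo-R8 with irinotecan, 5.98 in LoVo-R8 without irinotecan and 5.90 in parental LoVo. The differences were 0.07 with irinotecan and 0.08 without it, and the levels were below the array median on all arrays. With this probe set counted for APOBEC3A, the median of the family became 1.12 with irinotecan and 1.17 without it.

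**Figure D2:**
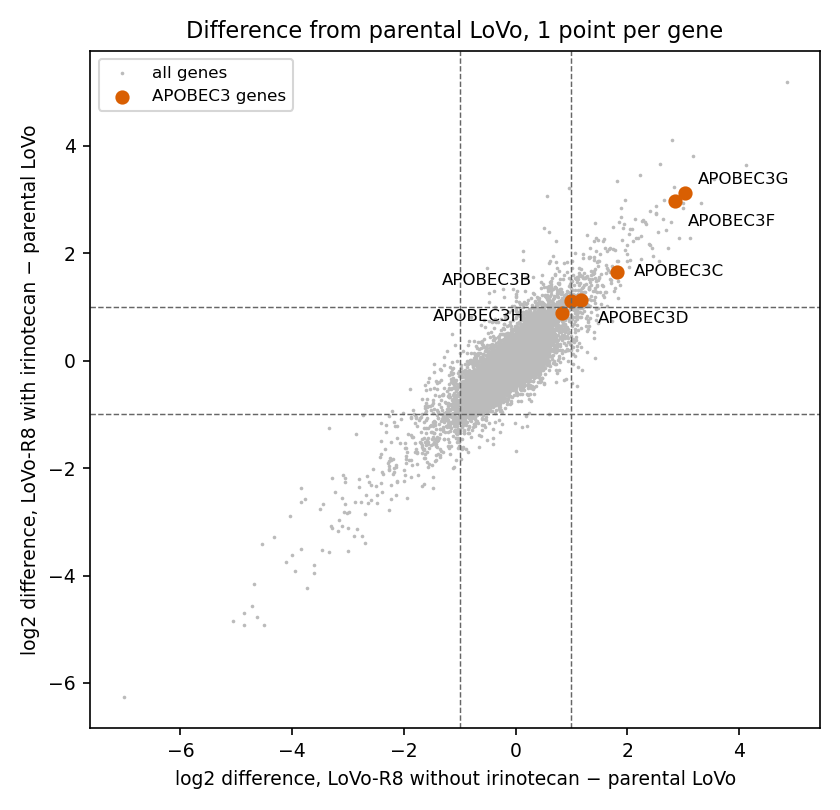
Log2 difference from parental LoVo in LoVo-R8 without irinotecan (horizontal axis) and LoVo-R8 with irinotecan (vertical axis), with 1 grey point for each of 18417 genes, the 6 singly measured APOBEC3 genes in orange and dashed lines at 2-fold. Both axes share the parental array. APOBEC3G (3.03 and 3.13) and APOBEC3F (2.85 and 2.97) lie at the upper right, and APOBEC3H lies inside the 2-fold lines.

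The presence of the drug in LoVo-R8 culture went with differences far below 2-fold. Comparing LoVo-R8 with irinotecan against LoVo-R8 without irinotecan, 0 of 6 members were 2-fold higher, against 0.527% of all genes, and 0 were 2-fold lower, against 0.114%. The share of all genes in either direction was 0.641%. Differences ran from -0.16 for APOBEC3C to 0.12 for APOBEC3F, with a median of 0.08. For comparison, 95% of all genes differed by less than 0.53 between these arrays. The other APOBEC3F probe set had 0.27 and the APOBEC3A probe set -0.01. With 1 array per culture, differences of this size cannot be told from variation between arrays.

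The genes flanking the family were measured on the same arrays. In RefSeq gene order, the 5 measured genes before the family were GTPBP1, SUN2, DNAL4, NPTXR and CBX6, and the 5 after it were CBX7, PDGFB, RPL3, SNORD83B and SNORD83A. Of these 10, 0 were 2-fold higher or lower in either comparison with parental LoVo, a count near the 4.56% and 4.42% of all genes that differed so with and without irinotecan. Their differences ran from -0.12 to 0.56 with irinotecan, with a median of 0.16, and from -0.31 to 0.27 without it, with a median of 0.09. The adjoining genes are a pair of Polycomb genes. CBX6 had 9.13 in LoVo-R8 with irinotecan, 8.85 in LoVo-R8 without irinotecan and 8.58 in parental LoVo, and its differences from parental LoVo (0.56 with irinotecan and 0.27 without it) were the highest of the 10. CBX7 had 7.73, 7.56 and 7.47 on the arrays in that order. Taking protein-coding genes alone, a choice made after the data were seen, puts SYNGR1 and MGAT3 in place of the small nucleolar RNA genes, and again 0 of 10 differed by 2-fold.

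**Figure D3:**
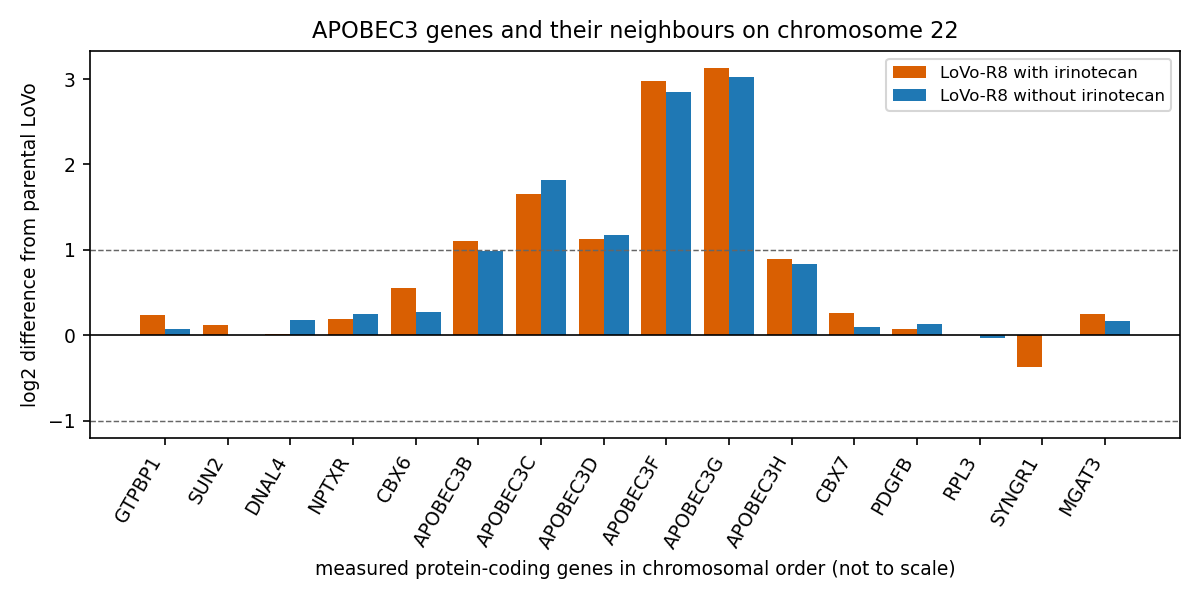
Log2 difference from parental LoVo (vertical axis) of 6 APOBEC3 genes and the 5 measured protein-coding genes on each side, in chromosomal order, in LoVo-R8 with irinotecan (orange) and without irinotecan (blue), with dashed lines at 2-fold. APOBEC3A has no probe set of its own and is not shown. Each APOBEC3 bar is taller than every flanking bar, and the tallest flanking bar is CBX6 at 0.56.

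Among all genes at or above the array median on at least 1 array, the pattern of APOBEC3G was closest to that of the surface antigen gene MSLN, by Euclidean distance over the pair of log2 differences from parental LoVo (0.09). ZNF91 (0.19), a zinc finger repressor of retrotransposons, the transcription factor gene ETV1 (0.21), APOBEC3F (0.23) and the transcription factor gene GLIS3 (0.28) followed. For APOBEC3F the nearest were ZNF91 (0.14), the efflux pump gene ABCG2 (0.19), GLIS3 (0.19), APOBEC3G (0.23) and MSLN (0.23). ZNF91 had 10.00 in LoVo-R8 with irinotecan, 10.05 in LoVo-R8 without irinotecan and 7.06 in parental LoVo. It belongs to a large paralogous family and may share probe sequence. The parental level of ETV1 was dim (5.13), so the size of its differences is uncertain. This likeness rests on 2 differences that share an array, and any gene far above its parental level on both arrays scores well on it.

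Deaminase genes outside the family were measured beside it. The intestinal RNA editing enzyme gene APOBEC1 had 5.03 in LoVo-R8 with irinotecan, 5.24 in LoVo-R8 without irinotecan and 5.23 in parental LoVo, and APOBEC4 had 4.18 on all 3 arrays. All these levels are dim. APOBEC2 had no single-gene probe set here. Of 10 genes of RNA and nucleotide deamination, a list that includes the APOBEC1 partner gene A1CF, 0 were 2-fold higher or lower in any comparison. That count is near the shares of all genes, 4.56% with irinotecan and 4.42% without it against parental LoVo. Between the LoVo-R8 arrays the share was 0.641%. The list's median difference from parental LoVo was -0.10 with irinotecan and -0.05 without it. CDA, which deaminates free cytidine, had -0.23 with irinotecan and -0.71 without it, and the RNA editing gene ADAR had -0.10 and -0.37.

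Uracil made by APOBEC3 enzymes in DNA is removed by base excision repair. Of 15 measured genes of uracil excision and abasic site repair, 0 were 2-fold higher on either array, near the 2.25% of all genes with irinotecan and 1.64% without it. In LoVo-R8 with irinotecan 0 were 2-fold lower, against 2.3% of all genes, and in LoVo-R8 without irinotecan 3 were, against 2.78% of all genes. The median difference was -0.11 with irinotecan and -0.07 without it. UNG, the main uracil DNA glycosylase, had 8.72 in LoVo-R8 with irinotecan, 7.73 in LoVo-R8 without irinotecan and 9.13 in parental LoVo. TDG, which excises uracil and thymine from mispairs with guanine, had 6.99, 6.68 and 7.96 on the arrays in that order. The flap endonuclease gene FEN1 had 8.27, 7.82 and 8.92. These 3 genes were named for passing 2-fold downwards in LoVo-R8 without irinotecan alone. That each was lowest on that array follows from this choice. The differences from parental LoVo there were -1.40 for UNG, -1.29 for TDG and -1.10 for FEN1.

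Several APOBEC3 genes, APOBEC3G among them, are induced by interferon in many cell types. Interferon-stimulated genes were on balance below parental levels in these cells. Of 22 measured, 3 were 2-fold lower in LoVo-R8 with irinotecan, against 2.3% of all genes, and 1 was 2-fold higher, against 2.25%. In LoVo-R8 without irinotecan 4 were 2-fold lower, against 2.78% of all genes, and 0 higher, against 1.64%. A total of 17 of the 22 lay below their parental level with irinotecan and 19 without it. The share of all genes below their parental level was not counted. Their median difference was -0.34 with irinotecan and -0.49 without it, and that of all genes was 0 in both comparisons. Whether interferon bears on the APOBEC3 levels of these cells was not tested. IFIT2, an antiviral translation inhibitor, had 5.79 in LoVo-R8 with irinotecan, 5.71 in LoVo-R8 without irinotecan and 7.32 in parental LoVo. IFIT1 had differences of -1.21 with irinotecan and -1.52 without it, and the RNA sensor gene RIGI -1.14 and -1.28. IFI6, a survival factor of interferon-treated cells, was the gene counted as higher, with 1.56 with irinotecan and 0.20 without it.

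Other antiviral restriction factors were divided. Of 15 measured, 1 was 2-fold higher and 1 lower in LoVo-R8 with irinotecan, against 2.25% and 2.3% of all genes. In LoVo-R8 without irinotecan 2 were higher and 3 lower, against 1.64% and 2.78% of all genes. Their median difference was 0.21 with irinotecan and 0.15 without it. RSAD2, which encodes viperin, was lower on both arrays (-1.54 with irinotecan and -1.47 without it). The antiviral zinc finger gene ZC3HAV1 had -0.90 and -1.46. The membrane factor gene IFITM3, a barrier to virus entry, had 1.28 and 0.77, and SLFN5 had -0.11 and 1.11. Of 5 measured host partners that Vif recruits to degrade APOBEC3 proteins, 0 were 2-fold higher or lower in any comparison. That count is near the shares of all genes, 4.56% with irinotecan and 4.42% without it against parental LoVo. Between the LoVo-R8 arrays the share was 0.641%. CBFB, which stabilizes Vif, had -0.44 with irinotecan and -0.63 without it, and the scaffold gene CUL5 had -0.25 and -0.54.

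APOBEC3B is known to be driven by NF-kappaB and restrained by the DREAM complex, which represses cell cycle genes. Whether either bears on the APOBEC3B level of these cells was not tested. Of 12 measured NF-kappaB subunits and targets, 4 passed 2-fold upwards and 0 downwards on each LoVo-R8 array. Of all genes, 2.25% were as much higher and 2.3% lower with irinotecan, and 1.64% and 2.78% without it. The 4 were the chemokine genes CCL20, CXCL1 and CXCL8 and the feedback inhibitor gene TNFAIP3. TNFAIP3 had 9.10 in LoVo-R8 with irinotecan, 8.52 in LoVo-R8 without irinotecan and 7.50 in parental LoVo. The parental level of CCL20 was dim (5.03), so the size of its differences is uncertain. The subunit genes RELA, RELB, REL, NFKB1 and NFKB2 did not reach 2-fold in any comparison. The list's median was 0.44 with irinotecan and 0.49 without it. This list overlaps genes already known to be high on these arrays. Of 14 DREAM and B-Myb genes, 0 reached 2-fold in any comparison. That count is near the shares of all genes, 4.56% with irinotecan and 4.42% without it against parental LoVo. Between the LoVo-R8 arrays the share was 0.641%. The median of the 14 genes was -0.26 with irinotecan and -0.43 without it. Of the DREAM pocket protein genes, RBL1 had -0.49 and -0.97, the largest difference of the list, and RBL2 had 0 and -0.04.

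**Figure D4:**
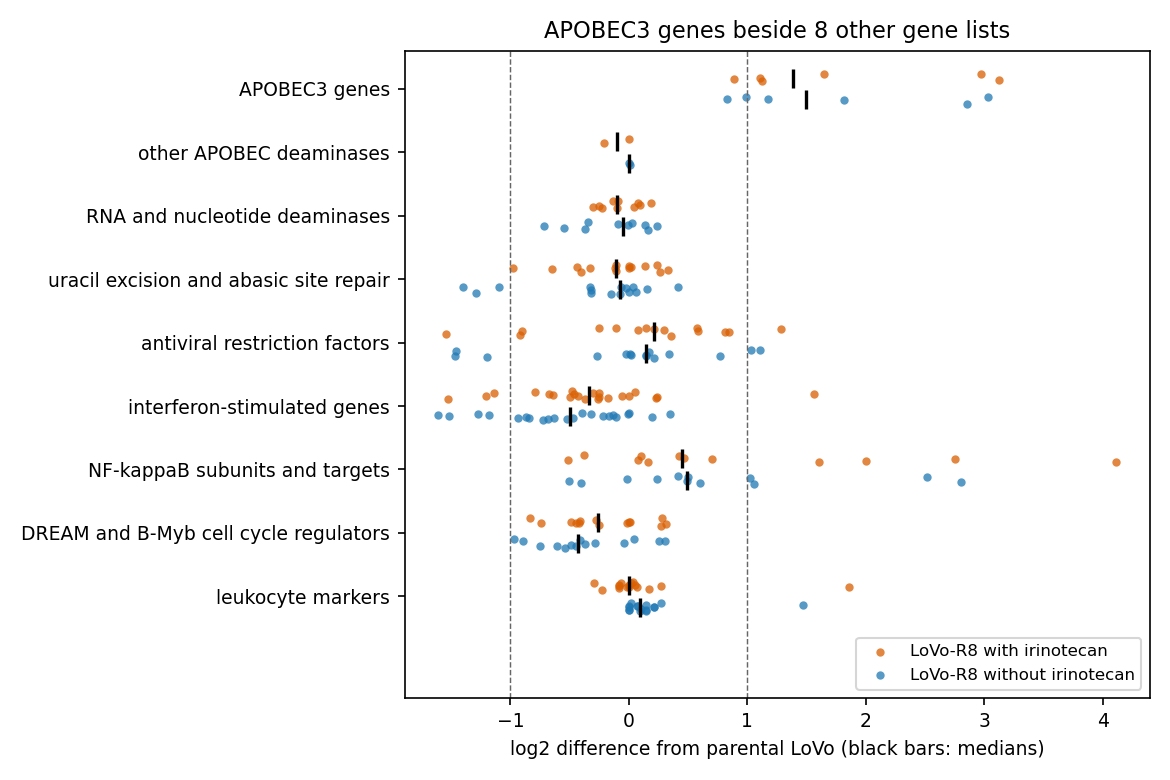
Log2 difference from parental LoVo (horizontal axis) of each measured gene of 9 lists (rows) in LoVo-R8 with irinotecan (orange) and without irinotecan (blue). Black bars mark each list's median, and dashed lines mark 2-fold. The APOBEC3 medians lie at 1.39 and 1.49, and those of the interferon-stimulated genes at -0.34 and -0.49. The APOBEC3 family was chosen by these same differences.

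The labels call all 3 cultures colorectal cancer cells, and 8 of 10 epithelial and colon markers were above the array median on all 3 arrays. EPCAM had 12.03 in LoVo-R8 with irinotecan, 11.90 in LoVo-R8 without irinotecan and 12.33 in parental LoVo. KRT20 was below the median on every array, with 6.13 on both LoVo-R8 arrays and 6.40 in parental LoVo. VIL1 was below it in LoVo-R8 without irinotecan (6.64). CDX1 was barely above it in parental LoVo (6.95). At 2-fold, against 4.56% and 4.42% of all genes with and without irinotecan, 1 marker was higher and 1 lower on each LoVo-R8 array. CEACAM5 was lower in LoVo-R8 (-2.11 with irinotecan and -2.37 without it) and CDH17 higher (1.13 and 1.07). Lymphocytes and myeloid cells normally express several APOBEC3 genes at high levels. Of 16 leukocyte markers measured, 14 were below the array median on all 3 arrays. The share of all genes below it on all 3 was not counted. The mean level of the leukocyte markers was 6.13 in LoVo-R8 with irinotecan, 6.22 in LoVo-R8 without irinotecan and 6.03 in parental LoVo. PTPRC, which encodes the pan-leukocyte antigen CD45, had 4.12 on all 3 arrays, and CD3E had 5.59, 5.69 and 5.54. NKG7 was above the array median on all 3 arrays (7.14, 7.46 and 7.37), as was CD68. The lysosomal protein gene CD68, which is not confined to myeloid cells, was the one leukocyte marker past 2-fold. Of all genes, 4.56% differed so from parental LoVo with irinotecan and 4.42% without it. CD68 had 11.51 in LoVo-R8 with irinotecan, 11.12 in LoVo-R8 without irinotecan and 9.64 in parental LoVo. In RNA from whole cultures, more cells with a transcript and more transcript per cell cannot be told apart.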

How the data were processed

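Total RNA of 3 cultures was hybridized by the authors to Affymetrix Human Gene 1.0 ST arrays. The deposited values are log2 levels that the authors made by RMA, with background correction, quantile normalization and median polish. For this step the submitters' processing notes list Affymetrix Expression Console 1.1, while the study's methods list R with Bioconductor. Median polish over 3 arrays can return exactly equal values for a probe set. Detection calls were not used here.

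Conditions came from the sample labels. Comparisons subtract one log2 level from another and count differences of 2-fold or more. With 1 array per condition there was no test and no error, and precision is limited by the number of arrays. Where several probe sets named 1 gene alone, the one brightest on average represented it, and probe sets naming several genes were kept apart. Gene order and older symbols came from RefSeq (GRCh38.p14), which holds 18389 of the 18417 genes.

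The members and 10 gene lists were chosen with earlier results of these data known. By rule, the text names every member, the 5 measured genes on each side, the 5 genes nearest to APOBEC3G and to APOBEC3F, and up to 4 members past 2-fold of each list. Other list members were named after their values were seen.

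Alternatives were thresholds of 1.5-fold and 3-fold, median centring, repeated quantile normalization, loess correction (span 0.3, 3 iterations), filters on dim probe sets, the mean over probe sets, and shared probe sets counted. The calculation was tested on simulated data with planted differences, which checks the subtraction and counting and says nothing of variation between cultures. Python 3.11.15, numpy 2.4.6, pandas 2.3.3, statsmodels 0.14.6 and matplotlib 3.10.9 were used.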

Additional observations from a re-analysis of the deposited data

How the results depend on the processing

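The direction of every singly measured APOBEC3 gene from parental LoVo was the same under all alternatives tried. At 3-fold, 3 members were counted as higher in LoVo-R8 with irinotecan and 3 in LoVo-R8 without irinotecan, and at 1.5-fold 6 and 6. With loess correction or repeated quantile normalization, 5 were counted without irinotecan, since APOBEC3B passed 2-fold there. The shares of all genes at 3-fold, at 1.5-fold or after these corrections were not counted, so the counts have no background beside them. Keeping only members at or above the array median on the higher array of a comparison, which removes APOBEC3H, gave a median difference of 1.65 with irinotecan and 1.81 without it. APOBEC3G and APOBEC3F passed this filter through the LoVo-R8 arrays alone, so the higher median is built in and supports nothing. Counting the shared probe set for APOBEC3A gave 1.12 and 1.17. The mean of both APOBEC3F probe sets was 2.73 with irinotecan and 2.54 without it, and the other probe set, an alternative chosen after seeing the data, gave 2.49 and 2.22. Between the LoVo-R8 arrays, 0 members were counted at 2-fold under every alternative. No paired analysis was possible because each condition has 1 array. Low signal limits APOBEC3H, the APOBEC3A probe set and the parental level of APOBEC3G, and without replicates no alternative says how far the values would vary between cultures.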
